A study of Mus musculus with 17 samples.

Results

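The immediate early genes described here are Fos, Fosb, Junb, Egr1, Egr3, Arc, Ier2, Nr4a1, Dusp1 and Btg2. They were picked by gene symbol, and each symbol matched 1 Ensembl identifier, so they are 10 of the 78298 gene identifiers counted. Their transcripts were counted by bulk RNA sequencing of mouse dorsal root ganglia at lumbar levels L4-L6, where the cell bodies of the sensory neurons of the leg lie. The groups were 3 libraries labelled knockout (KO) after chronic constriction injury (CCI, in which ligatures are tied loosely about the sciatic nerve), 5 wild-type (WT) libraries after CCI, 4 sham libraries labelled KO and 5 sham WT libraries. The knocked-out gene is Kcnk1, which encodes the potassium channel Twik1, and all 17 libraries carry the label day 30. None of the sources used here gives the strain, age, sex, time of day of collection or the deleted part of Kcnk1.

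Immediate early genes are transcribed within minutes of a stimulus without the need for newly made protein. In sensory neurons, calcium entry and growth factor signalling switch them on through the transcription factors CREB and SRF, and their transcripts are short-lived. Many of them also respond in glia and vascular cells.

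At the labelled day 30, 7 of the 10 genes were called in no comparison, and 3 carried every call. Of all tested genes, 3.06% were called in the WT injury comparison and 0.684% in the CCI genotype comparison. Dusp1, a phosphatase that switches off MAP kinases, was higher in CCI KO libraries, at 76.5 ± 3.28 CPM, against 40.8 ± 4.70 CPM in sham KO libraries (SD, n = 3 and 4). Nr4a1, an orphan nuclear receptor, was lower in sham KO libraries, at 44.3 ± 2.77 CPM, against 56.4 ± 5.91 CPM in sham WT libraries (SD, n = 4 and 5). Both calls were near the threshold, and each held in 4 of 17 fits that left out 1 library. Averaged over both treatments, Nr4a1 and the zinc-finger factor Egr3 were lower in KO-labelled libraries than in WT libraries. That call held in 17 of 17 such fits for Nr4a1 and in 7 of 17 for Egr3. CPM is a gene's count per M counts of the scaled library (M, mega), and a gene was called where the edgeR quasi-likelihood test gave a Benjamini-Hochberg adjusted p under 0.05 over all 23972 genes tested.

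Depth per library was 55.8 to 70.4 M gene counts for CCI KO, 52.5 to 65.7 M for CCI WT, 52.8 to 59.4 M for sham KO and 54.5 to 73.6 M for sham WT. Kcnk1 itself was reduced but not absent in the KO-labelled libraries, at 78.3 to 89.0 CPM in CCI KO, 106 to 121 CPM in CCI WT, 75.1 to 114 CPM in sham KO and 94.3 to 139 CPM in sham WT libraries. Its mean genotype effect was -0.47 ± 0.09 on the log2 scale (SE, edgeR adjusted p = 0.00746). Sham KO libraries 1 and 2 stood apart from the other sham libraries. The injury-induced transcription factor Atf3 reached 141 and 103 CPM in them, against 11.1 and 13.2 CPM in sham KO libraries 3 and 4 and 9.42 to 16.8 CPM in the sham WT libraries. A number in the names of the deposited tables is common to the 9 sham libraries and takes another value in each CCI group. What it stands for is unknown; should it be a batch, comparisons that use a CCI group cannot be told apart from it, whereas the sham genotype comparison holds 1 number. Since no label ties libraries to separate animals, the p-values cover only the spread among these samples, which may be technical. In bulk tissue, fewer cells of a type and less RNA per cell cannot be told apart.

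In the injury comparison within WT libraries, no member of the 10 was called by edgeR, where 3.06% of all tested genes were. In that comparison 3 members had an unadjusted p under 0.05, DESeq2 called 2 and limma-voom called 0. Shares of all tested genes under those rules are not given, here or below. Whether such counts exceed the background is therefore not shown. In the injury comparison within KO-labelled libraries, 1 member rose (Dusp1), where 0.0709% of all tested genes did. In the genotype comparison within sham libraries, 1 member fell (Nr4a1), where 0.743% of all tested genes did. In the genotype comparison within CCI libraries, edgeR called 0 members, where 0.684% of all tested genes were called; 3 members had an unadjusted p under 0.05, and DESeq2 and limma-voom called 0. The mean genotype effect over both treatments gave 2 members that fell (Nr4a1 and Egr3), where 1.86% of all tested genes did. For the interaction, which is the injury effect in KO minus that in WT libraries, edgeR called 0 members and 0% of all tested genes, 1 member had an unadjusted p under 0.05, and DESeq2 and limma-voom called 0 members.

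The signs of the 10 log2 fold changes were mixed in every comparison. In the WT injury comparison 7 were positive and 3 negative, with a median of 0.13 beside -0.01 over all tested genes. In the KO injury comparison 8 were positive and 2 negative, with a median of 0.19. Within sham libraries the KO-labelled group gave 8 negative and 2 positive values, with a median of -0.37. The 2 last comparisons share the sham KO libraries, so a low value there enters both, with opposite signs.

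**Figure D1:**
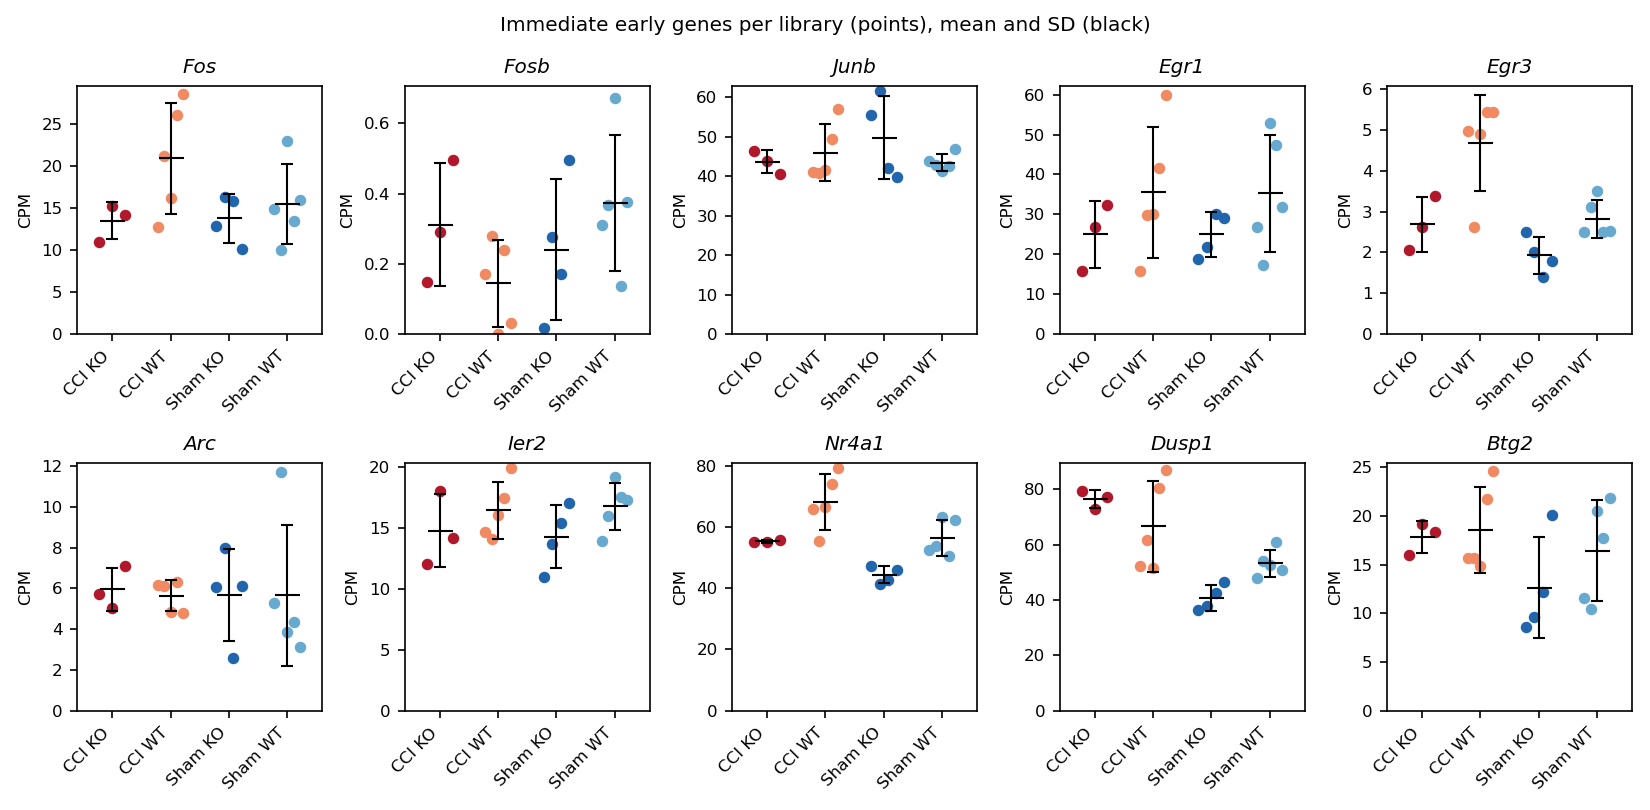
CPM of the 10 immediate early genes in each of the 17 libraries (points, linear axes from 0) by group, with the group mean and SD in black. The CCI KO libraries sit above every sham KO library for Dusp1 and Nr4a1, as for 4.41% of tested genes. The sham KO libraries sit below every sham WT library for the same 2 genes, as for 2.08% of tested genes. The groups overlap for most others.

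Levels between genes were compared per kilobase of merged exons, as medians over the 17 libraries. Junb was the most abundant by this measure, at 18.0 CPM per kb, ahead of Dusp1 at 15.8 CPM per kb. Ier2 followed at 10.5 CPM per kb. Egr1, Fos and Nr4a1 lay close together at 6.64, 6.45 and 5.06 CPM per kb, and Btg2 stood at 2.56 CPM per kb. Arc reached 1.65 CPM per kb, Egr3 0.556 CPM per kb and Fosb 0.0441 CPM per kb. The order rests on the transcript model. Per kilobase of the canonical transcript alone, Dusp1 at 26.4 CPM per kb stood above Junb at 23.7 CPM per kb, Nr4a1 came next at 21.6 CPM per kb, and Fos at 7.20 CPM per kb stood above Egr1 at 6.64 CPM per kb. Neighbours in this order were not tested against each other. The libraries ran between 15.8 and 60.0 CPM for Egr1, 36.4 and 87.1 CPM for Dusp1 and 39.7 and 61.7 CPM for Junb. Close ranks, such as those of Junb and Dusp1 or of Egr1 and Fos, are therefore not settled.

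Among the AP-1 subunits, Fos is the transcription factor used most widely as a marker of recent neuronal activity. It had 10.99, 15.2 and 14.1 CPM in CCI KO libraries 2, 3 and 4, and 12.7, 21.1, 16.1, 26.0 and 28.6 CPM in CCI WT libraries 1 to 5. It had 12.9, 16.2, 15.8 and 10.1 CPM in sham KO libraries 1 to 4, and 14.9, 10.02, 22.9, 13.5 and 15.9 CPM in sham WT libraries 1 to 5. CCI WT libraries 4 and 5 were the highest of all 17, and every pair of groups overlapped. The log2 fold change was 0.44 ± 0.24 (SE) for CCI WT over sham WT libraries (edgeR adjusted p = 0.471) and -0.64 ± 0.28 for CCI KO over CCI WT libraries (edgeR adjusted p = 0.528). For CCI KO over sham KO libraries it was -0.03 ± 0.29 (edgeR adjusted p = 0.994).

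Fosb, a paralogue of Fos whose stable splice form accumulates with repeated stimulation in brain, was barely detected. Its counts ran between 9 and 35 per library in CCI KO, 0 and 16 in CCI WT, 1 and 30 in sham KO and 10 and 40 in sham WT libraries. The 0 in CCI WT library 3 allows at most 3 counts, and the standard errors of its log2 fold changes were 0.82 to 0.96 in the 4 comparisons of group pairs, so changes of the size seen in the other members were not detectable at this depth. Junb, an AP-1 subunit that dampens Jun activity, was level across the libraries except for a few. It had 46.4, 43.9 and 40.5 CPM in CCI KO libraries and 40.9, 40.9, 41.6, 49.3 and 57.1 CPM in CCI WT libraries. It had 55.4, 61.7, 42.1 and 39.7 CPM in sham KO libraries and 41.2 to 46.7 CPM in sham WT libraries. The 2 highest sham KO values belong to libraries 1 and 2, the ones with high Atf3. The log2 fold change of sham KO over sham WT libraries was 0.19 ± 0.12 with them and -0.08 without them, and neither passed the edgeR test (adjusted p = 0.591 and 0.938). The reads of Junb cannot be told apart by strand from those of Prdx2 and Gm65321 over 318 shared exon bases.

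The zinc-finger factors Egr1 and Egr3 bind the same GC-rich element and are targets of the ERK pathway. Egr1 had the highest within-group SD of log2 CPM of the well-detected members, at 0.59 against 0.55 for Arc. It had 15.8, 26.8 and 32.3 CPM in CCI KO libraries and 15.9, 29.9, 30.2, 41.7 and 60.0 CPM in CCI WT libraries. It had 18.9, 21.7, 30.2 and 29.1 CPM in sham KO libraries and 27.0, 17.4, 52.9, 47.4 and 31.8 CPM in sham WT libraries. No group separated from another, and the log2 fold change of CCI WT over sham WT libraries was 0.01 ± 0.36 (edgeR adjusted p = 0.997). Its 95% interval, taken from the SE, ran from -0.70 to 0.72, so changes within those bounds were not excluded. The interval is not a limit of detection, since larger changes could also miss the adjusted threshold.

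Egr3, needed in mouse for muscle spindles to form, was the least abundant member after Fosb. It had 2.05, 2.63 and 3.39 CPM in CCI KO libraries 2 to 4, against 4.97, 2.62, 4.91, 5.45 and 5.44 CPM in CCI WT libraries 1 to 5. It had 2.51, 2.002, 1.41 and 1.79 CPM in sham KO libraries, against 2.51, 3.11, 3.52, 2.50 and 2.52 CPM in sham WT libraries. In both treatments the KO-labelled libraries lay lower, but CCI WT library 2 fell inside the CCI KO range and sham KO library 1 overlapped the sham WT range. The mean genotype effect was -0.67 ± 0.18 on the log2 scale (SE, edgeR adjusted p = 0.0354), with -0.80 ± 0.26 in CCI libraries (edgeR adjusted p = 0.224) and -0.55 ± 0.24 in sham libraries (edgeR adjusted p = 0.348). The mean effect kept its call in 7 of 17 fits that each left out 1 library (CCI KO 4, CCI WT 2, sham KO 1 or 4, or sham WT 1, 4 or 5) and lost it without any of the others, with adjusted p between 0.0116 and 0.133. It missed the threshold with limma-voom (adjusted p = 0.0860) and with the replicate number as a block in edgeR (-0.65, adjusted p = 0.110). Without sham KO libraries 1 and 2 it was -0.80 (edgeR adjusted p = 0.0328). For CCI WT over sham WT libraries the log2 fold change was 0.73 ± 0.22 (edgeR adjusted p = 0.0754). That comparison passed with DESeq2 (adjusted p = 0.0308) and in edgeR without CCI WT library 2 (0.88, adjusted p = 0.0244).

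Nr4a1 encodes Nur77, an orphan nuclear receptor that acts as a transcription factor. It is a gene on the plus strand at chr15:101151980-101172681 of GRCm39. It had 54.9, 55.1 and 55.7 CPM in CCI KO libraries and 66.0, 55.3, 66.6, 73.9 and 79.2 CPM in CCI WT libraries. It had 47.3, 41.5, 42.6 and 46.0 CPM in sham KO libraries and 52.5, 53.8, 63.3, 50.4 and 62.3 CPM in sham WT libraries. The 4 sham KO libraries were the lowest of all 17, and the 3 CCI KO libraries lay above all of them and within 1 CPM of each other. Of all tested genes, 4.41% were higher in every CCI KO library than in every sham KO library.

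Nr4a1 fell in sham KO relative to sham WT libraries by 0.35 on the log2 scale (SE 0.09, edgeR adjusted p = 0.0487), with no overlap between the groups. In sham libraries 2.08% of tested genes were lower in every KO-labelled library than in every WT library. Across CCI libraries the difference was -0.30 ± 0.09 (edgeR adjusted p = 0.184), and CCI WT library 2 lay inside the CCI KO range. The mean genotype effect was -0.33 ± 0.06 (edgeR adjusted p = 0.0038). It passed in 17 of 17 fits that each left out 1 library, with log2 values from -0.35 to -0.29, and without sham KO libraries 1 and 2 together (-0.32, edgeR adjusted p = 0.0191). The call within sham libraries alone was less firm: it held in 4 of 17 such fits (without CCI WT 2 or 5, sham KO 4 or sham WT 4), was lost without any of the others, with adjusted p between 0.0340 and 0.207, and without sham KO libraries 1 and 2 the value was -0.34 (edgeR adjusted p = 0.341). With the replicate number as a block in edgeR the sham value was -0.30 (adjusted p = 0.0939). The mean genotype effect passed there (-0.27, edgeR adjusted p = 0.0189).

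Nr4a1 was also higher after injury under both labels, without passing the test in either. The log2 fold change was 0.32 ± 0.10 for CCI KO over sham KO libraries (edgeR adjusted p = 0.283) and 0.27 ± 0.08 for CCI WT over sham WT libraries (edgeR adjusted p = 0.0676). DESeq2 called the WT comparison (adjusted p = 0.0443), and edgeR did so without CCI WT library 2 (0.34, adjusted p = 0.0166) or without sham WT library 3 (0.31, adjusted p = 0.0404). Exons of Nr4a1 share 656 bases with Gm63180 on the opposite strand, and how reads there were counted is not given.

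Dusp1 encodes the nuclear phosphatase MKP-1, which is itself induced by MAP kinase signalling and then dephosphorylates p38, JNK and ERK. It is a gene on the minus strand at chr17:26724564-26781102 of GRCm39. It had 79.3, 72.9 and 77.4 CPM in CCI KO libraries, against 36.4, 37.7, 42.5 and 46.6 CPM in sham KO libraries. It had 52.2, 61.6, 51.6, 80.4 and 87.1 CPM in CCI WT libraries, against 47.8, 54.2, 52.6, 60.9 and 50.8 CPM in sham WT libraries. Under the KO label the CCI and sham values were far apart. Under the WT label CCI libraries 4 and 5 were high, and CCI library 2 lay just above the highest sham value. CCI WT libraries 1 and 3 lay among the sham WT values.

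Dusp1 rose 1.88-fold in CCI KO over sham KO libraries, by 0.91 ± 0.16 on the log2 scale (SE, edgeR adjusted p = 0.0449). It was higher in every CCI KO library than in any sham KO library, as were 4.41% of tested genes. The log2 value stayed between 0.86 and 0.98 in the 17 fits that each left out 1 library, but the adjusted p ran from 0.0186 to 0.436 and passed in 4 of them (without CCI WT 1, 3 or 5, or sham KO 4), and the call was lost without any of the others. Without sham KO libraries 1 and 2 the value was 0.78 (edgeR adjusted p = 0.157). In WT libraries the injury effect was 0.32 ± 0.13 (edgeR adjusted p = 0.253). The interaction was 0.58 ± 0.20 (unadjusted p = 0.0114, edgeR adjusted p = 0.727), so the injury effects under the 2 labels were not shown to differ.

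The low sham KO level of Dusp1 enters this comparison. In sham KO libraries it was lower than in every sham WT library, with a log2 fold change of -0.38 ± 0.14 that missed the threshold (edgeR adjusted p = 0.252), beside 2.08% of tested genes with no overlap in that direction. Exons of Dusp1 share 38 bases with Ergic1 on the opposite strand. In CCI KO over CCI WT libraries the difference was 0.20 ± 0.15 (edgeR adjusted p = 0.816), with all 3 CCI KO values inside the CCI WT range.

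The injury effect averaged over both labels was computed after the separate effects had been seen. In it, 2 of the 10 members rose by the edgeR test (Dusp1 and Nr4a1), where 2.74% of all tested genes did. Dusp1 was higher by 0.61 ± 0.10 on the log2 scale (SE, edgeR adjusted p = 0.00232) and Nr4a1 by 0.29 ± 0.06 (edgeR adjusted p = 0.00677). Both passed in 17 of 17 fits that each left out 1 library, and without sham KO libraries 1 and 2 together (0.55 and 0.30, edgeR adjusted p = 0.0212 and 0.0146). Egr3 was at 0.60 ± 0.17 (edgeR adjusted p = 0.0504), and passed without those 2 libraries (0.74, edgeR adjusted p = 0.0251).

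**Figure D2:**
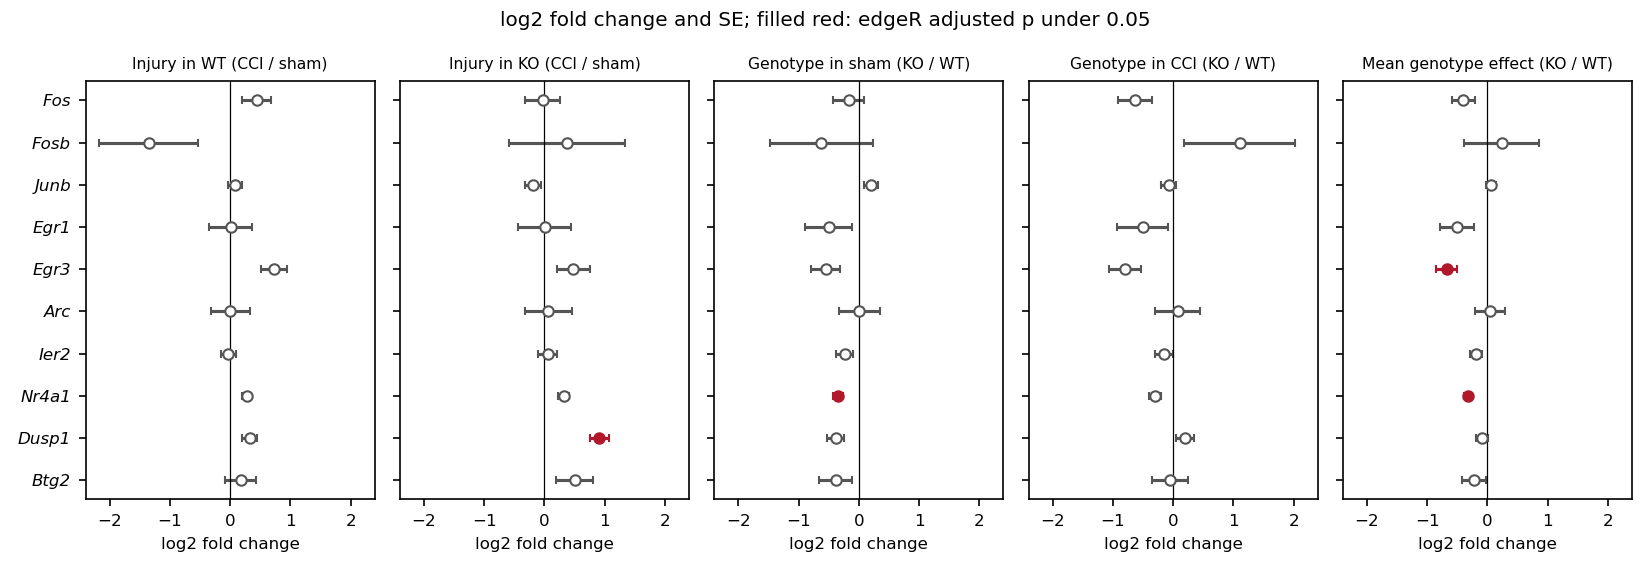
log2 fold changes (points) with SE (bars) of the 10 genes in 5 comparisons, on a common axis; filled red points passed the edgeR threshold. Dusp1 passed for injury under the KO label, Nr4a1 for genotype in sham libraries, and Nr4a1 and Egr3 for the mean genotype effect.

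The remaining members, Btg2, Ier2 and Arc, showed no call in any of these comparisons. Btg2, an antiproliferative gene induced by p53 and by neuronal activity, had 15.998, 19.2 and 18.3 CPM in CCI KO libraries, against 8.62, 9.59, 12.1 and 20.1 CPM in sham KO libraries. Sham KO library 4 alone lay above the CCI KO values. The log2 fold change was 0.50 ± 0.31 (edgeR adjusted p = 0.722), and 0.14 without sham KO libraries 1 and 2 (edgeR adjusted p = 0.943). In WT libraries Btg2 had 15.7, 15.7, 14.9, 21.7 and 24.6 CPM after CCI and 11.6, 10.4, 20.5, 17.8 and 21.8 CPM after sham surgery. Its exons share 898 bases with Gm31974 on the opposite strand.

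Ier2, a short nuclear protein of the immediate early response, was among the steadier members. It had 12.1, 18.1 and 14.2 CPM in CCI KO libraries, 14.1 to 19.95 CPM in CCI WT libraries, 10.99 to 17.0 CPM in sham KO libraries and 13.9 to 19.2 CPM in sham WT libraries. All 4 groups overlapped, and its log2 fold changes ran between -0.23 and 0.05 in the 4 comparisons of group pairs. Arc encodes a synaptic protein that assembles into capsid-like particles and is transported to dendrites in brain neurons. It had 5.02 to 7.12 CPM in CCI KO libraries, 4.82 to 6.34 CPM in CCI WT libraries, 2.59 to 8.01 CPM in sham KO libraries and 3.11 to 11.7 CPM in sham WT libraries. Its group means lay between 5.65 and 5.96 CPM, and all 4 log2 fold changes of group pairs were between 0 and 0.08 in size. Sham WT library 2, at 11.7 CPM, stood far above the other sham WT libraries. Without it the log2 fold change was 0.45 for CCI WT over sham WT libraries (edgeR adjusted p = 0.426) and 0.46 for sham KO over sham WT libraries (edgeR adjusted p = 0.492).

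Within groups the members varied more between libraries than most genes of like abundance. For 9 of the 10, the within-group SD of log2 CPM was above the median of tested genes whose mean log2 CPM lay within 0.5 of theirs. Egr1, with an SD of 0.59, exceeded 99.5% of such genes, Btg2 (0.42) exceeded 96.7% and Fos (0.40) exceeded 96.3%. Nr4a1, with an SD of 0.14, exceeded 77.6% of genes of like level, and Egr3, with an SD of 0.35, lay below their median.

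Deviations from the group means moved together for several members. Over the 17 libraries, 34 of the 45 pairs were positively and 11 negatively correlated. The share of positive pairs among other genes is not given. Sham KO libraries 1 and 2, the ones with high Atf3, lay below their group mean for Btg2, Ier2 and Egr1. Sham KO libraries 3 and 4 lay above it for the same genes, while Fos did not follow this split. The part of that split in the correlations was not tested. Ier2 and Btg2 gave Pearson r = 0.77 and Spearman rho = 0.76 (permutation within groups, adjusted p = 0.0144 and 0.0162 over 45 pairs), and r = 0.79 without the 2 libraries farthest from the median of Ier2. Egr1 and Btg2 gave r = 0.71 and rho = 0.74 (permutation adjusted p = 0.0369 and 0.0349), and 0.72 without the 2 farthest. Egr1 and Ier2 gave r = 0.70 and rho = 0.78 (permutation adjusted p = 0.0369 and 0.0252), and 0.65 without the 2 farthest. Fos and Egr1 gave r = 0.75 (permutation adjusted p = 0.0369), but rho = 0.65 missed the threshold (permutation adjusted p = 0.103), and r was 0.56 without the 2 farthest. The relation between Fos and Egr1 therefore rests in part on CCI WT library 1 and sham WT library 2, both low for both genes. No negative pair passed, and the strongest that involved Egr1 was with Arc (r = -0.49, permutation adjusted p = 0.185). No group holds 6 libraries, so no correlation within a single group was computed.

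**Figure D3:**
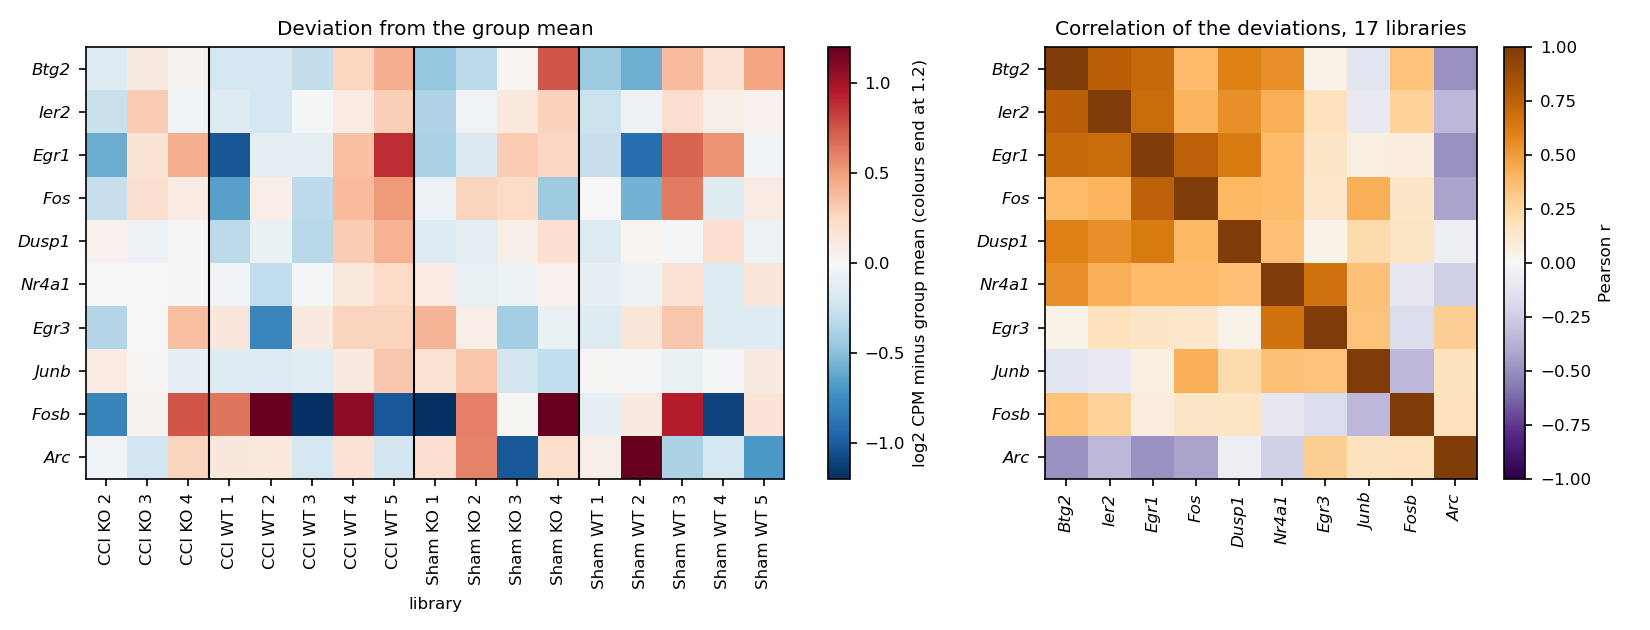
Left, deviation of log2 CPM from the group mean for each gene (rows) and library (columns, black lines between groups); red is above and blue below the group mean. Right, Pearson r between these deviations for the 45 pairs. All pairs among Btg2, Ier2, Egr1 and Fos are positive, and Arc is negative with each of these 4.

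The same libraries were often the extremes of their group. CCI WT library 5 was the highest of its group for 7 of the 10 members (Fos, Junb, Egr1, Ier2, Nr4a1, Dusp1 and Btg2), and sham WT library 3 was the highest of its group for 6. CCI KO library 2 was the lowest of its group for 7 members and the highest for 2 (Junb and Dusp1). Sham KO library 1 was the lowest for 5 and the highest for 2 (Egr3 and Nr4a1).

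The protein-coding genes whose log2 CPM tracked the mean standardised level of the 10 members most closely were Zcchc24 (r = 0.847), Lzts2 (0.834), Nkd1 (0.825), Plxnb1 (0.823) and Oaf (0.817), among 13534 genes over 17 libraries. Slc12a4, Tcn2, Tab2, Hycc1 and Emilin1 followed, with r between 0.791 and 0.799. Once group means were removed, the order changed. Rnpepl1 (r = 0.807), Nfkbia (0.789), Plxnb1 (0.786), Crispld1 (0.776) and Pabpc1 (0.770) came first. Depp1, Sgk1, Slf2, Atad5 and Zfp36 followed, with r between 0.745 and 0.756. Plxnb1 was the 1 gene among the first 10 by both measures. These correlations are a description, and all genes in a library share its depth and its tissue.

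The promoters of the members that carry the calls or moved together are shown because cAMP response elements, bound by CREB, are a known feature of immediate early genes. Of the 10 members, 6 were in the RefSeq promoter table on GRCm38.p6 (Fos, Fosb, Junb, Nr4a1, Dusp1 and Btg2). The sequences are the 250 bases before each gene's start, read 5′ to 3′ on the gene's own strand, with capitals for TGACG on either strand (CGTCA where it lies on the other strand). Fos is at chr12:85473640-85473889 (plus strand), Nr4a1 at chr15:101266596-101266845 (plus strand), Dusp1 at chr17:26508473-26508722 (minus strand) and Btg2 at chr1:134079156-134079405 (minus strand).

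Fos promoter: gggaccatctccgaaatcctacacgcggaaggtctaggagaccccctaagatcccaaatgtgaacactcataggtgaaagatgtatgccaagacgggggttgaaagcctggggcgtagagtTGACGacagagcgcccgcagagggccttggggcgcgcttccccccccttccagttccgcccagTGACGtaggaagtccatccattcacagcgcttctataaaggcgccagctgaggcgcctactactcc

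Nr4a1 promoter: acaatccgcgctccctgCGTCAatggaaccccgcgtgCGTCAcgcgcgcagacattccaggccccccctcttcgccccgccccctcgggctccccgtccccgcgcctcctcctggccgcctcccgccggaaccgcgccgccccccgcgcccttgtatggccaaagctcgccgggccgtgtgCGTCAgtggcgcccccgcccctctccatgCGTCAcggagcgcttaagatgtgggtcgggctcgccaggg

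Dusp1 promoter: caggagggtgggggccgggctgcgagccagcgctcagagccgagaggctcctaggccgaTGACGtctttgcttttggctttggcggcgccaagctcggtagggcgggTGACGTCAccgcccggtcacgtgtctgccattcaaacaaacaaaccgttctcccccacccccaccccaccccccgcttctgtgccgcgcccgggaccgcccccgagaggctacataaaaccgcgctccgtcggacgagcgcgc

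Btg2 promoter: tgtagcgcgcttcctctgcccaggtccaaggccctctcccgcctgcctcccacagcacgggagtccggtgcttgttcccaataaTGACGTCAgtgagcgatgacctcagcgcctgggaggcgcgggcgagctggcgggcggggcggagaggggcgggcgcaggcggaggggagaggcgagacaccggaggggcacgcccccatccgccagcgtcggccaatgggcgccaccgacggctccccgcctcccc

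All 6 promoters held TGACG, which was present in 17.8% of 32851 RefSeq promoters over the same length. Nr4a1 held 4 such matches, all as CGTCA, at 229, 209, 65 and 36 bases before the start. Fos held 2, at 125 and 62 bases before the start. The full palindrome TGACGTCA, which counts as TGACG once on each strand, was present in Dusp1 and Btg2 and in 1.55% of all promoters. Dusp1 held a further TGACG at 187 bases before the start. The Egr element GCGGGGGCG on either strand was found in the Nr4a1 and Fosb promoters and in 2.57% of all promoters. The CArG box bound by SRF was found in 0 of the 6 and in 1.47% of all promoters, which says only that those letters are not in these 250 bases. These matches describe the letters and were not related to the levels.

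The other 54 immediate early and early response genes listed for comparison gave 51 that passed the filter on low counts. In CCI WT over sham WT libraries, 9 of them rose and 1 fell, where edgeR called 3.06% of all tested genes in either direction. Their median log2 fold change was 0.16 beside -0.01 over all tested genes. The list was drawn up with earlier results of these libraries known. Atf3, a stress-induced factor of injured neurons, had 220 ± 67.1 CPM in CCI WT and 12.3 ± 3.38 CPM in sham WT libraries (SD, n = 5 each), and rose by 4.17 ± 0.68 on the log2 scale in the edgeR test (SE, adjusted p = 0.00425). Cited2, a coregulator of CBP and p300, rose by 0.89 ± 0.13 (edgeR adjusted p = 0.000197), and Nfil3, a repressor of the bZIP class, by 0.87 ± 0.17 (edgeR adjusted p = 0.00366). Fosl2, an AP-1 subunit, rose by 1.08 ± 0.21 (edgeR adjusted p = 0.00404). The 6 others are named after their values were seen. Jun rose by 0.83 ± 0.19 (edgeR adjusted p = 0.0321), Ier5 by 0.77, Arid5a by 0.52, Ifrd1 by 0.49 and Klf6 by 0.35 on the log2 scale. Bhlhe40, a transcriptional repressor tied to the circadian clock, fell by 0.32.

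**Figure D4:**
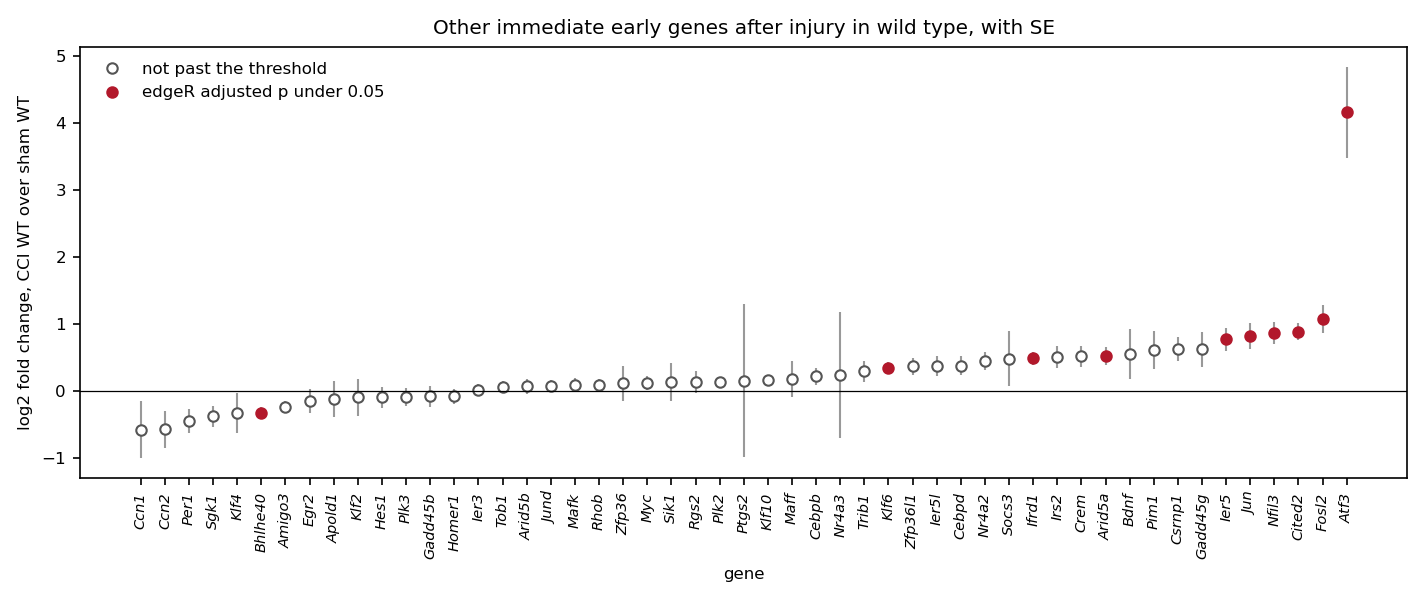
log2 fold change (points) with SE (lines) of CCI WT over sham WT libraries for the 51 other immediate early genes that passed the filter, sorted by size; filled red points passed the edgeR threshold. Most lie between -0.6 and 0.7, and Atf3 at 4.17 is far above the rest.

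In the other comparisons few of these 51 genes were called, and few of all tested genes were. Of all tested genes, edgeR called 0.684% for CCI genotype and 0% for the interaction. For KO injury 0.0709% rose and for sham genotype 0.743% fell, and the shares in the opposite directions are not given. Under the KO label, edgeR called 0 for injury, with 11 at an unadjusted p under 0.05, 2 by DESeq2 and 0 by limma-voom. The smallest p there belonged to Maff, at -1.33 ± 0.34 (edgeR adjusted p = 0.175). Ier3 was the 1 gene that rose in sham KO over sham WT libraries, by 0.42 ± 0.10 (edgeR adjusted p = 0.0395), at 18.1 ± 1.37 CPM in sham KO and 13.6 ± 0.754 CPM in sham WT libraries (SD, n = 4 and 5). DESeq2 called 9 in that comparison. edgeR called 0 without sham KO libraries 1 and 2, 0 without any 1 of CCI WT 1, sham KO 1 or 2 or sham WT 2 to 5, and 8 without sham KO 3 or 4. In CCI KO over CCI WT libraries edgeR called 0, with 5 at an unadjusted p under 0.05, 1 by DESeq2 and 1 by limma-voom, and Per1 had the smallest p (0.76 ± 0.20, edgeR adjusted p = 0.0889). For the interaction edgeR called 0, with 13 at an unadjusted p under 0.05 and 0 by DESeq2 or limma-voom. Zfp36l1, an mRNA decay factor, fell in the mean genotype effect, by 0.36 (SE 0.10, edgeR adjusted p = 0.0385). It was 1 of the 51, near the 1.86% of all tested genes that fell. The count of that effect was 0 without any 1 of CCI KO 3, CCI WT 1, 3, 4 or 5, sham KO 1 or 2 or sham WT 2 or 3, 2 without sham KO 3 and 4 without sham KO 4.

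Calls among the kinases and transcription factors that switch these genes on were few, as were calls among all tested genes. Of all tested genes, edgeR called 3.06% for WT injury, 0.684% for CCI genotype and 0% for the interaction. In the mean genotype effect 1.86% fell, and the share that rose is not given. At such shares few or no calls in lists this short are not a result about these genes. Of 25 SRF and CREB regulators, edgeR called 1 in the 6 comparisons: Camk2g, a calcium-dependent kinase, was higher in the mean genotype effect by 0.22 ± 0.05 (edgeR adjusted p = 0.0138). For that effect DESeq2 and limma-voom called 2 each. The WT injury comparison had 7 at an unadjusted p under 0.05, 2 called by DESeq2 and 1 by limma-voom. The KO injury comparison had 5 at an unadjusted p under 0.05. Within sham and within CCI libraries, limma-voom called 1 each for genotype. Of 14 genes of the ERK cascade, edgeR called 0 in all 6 comparisons, with 5 or fewer at an unadjusted p under 0.05 in each, and DESeq2 and limma-voom called 1 each, in the WT injury comparison. Of 15 feedback genes of MAP kinase signalling, Dusp14 fell by 0.38 in the mean genotype effect (edgeR adjusted p = 0.0296), where DESeq2 called 1 and limma-voom 2. The KO injury comparison had 6 of them at an unadjusted p under 0.05, with 0 called by DESeq2 or limma-voom. The sham genotype comparison had 4, with 1 called by each of these tools. Of 16 heat shock and stress genes edgeR called 0 in all 6 comparisons, with 5 or fewer at an unadjusted p under 0.05 in each, 0 by DESeq2 and 1 by limma-voom in the WT injury comparison. Of 12 targets of p53 besides Btg2, Cdkn1a, Btg1 and Phlda3 rose in CCI WT over sham WT libraries, by 0.83, 0.36 and 0.35. Cdkn1a fell by 0.48 in CCI KO over CCI WT libraries, and Cdkn1a and Phlda3 fell by 0.33 and 0.22 in the mean genotype effect.

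Markers of other cells moved with genotype. The 4 myelinating Schwann cell markers (Mbp, Pmp22, Prx and Mag) summed to 4376 to 5246 CPM in CCI KO, 7295 to 10071 CPM in CCI WT, 3483 to 4731 CPM in sham KO and 6924 to 9893 CPM in sham WT libraries. All 4 fell in the mean genotype effect, beside the lower Nr4a1 and Egr3, with 3 called in sham and 2 in CCI libraries. Of all tested genes, 1.86% fell in the mean genotype effect and 0.743% in sham libraries, and 0.684% were called in CCI libraries. Pmp22, a protein of compact myelin, fell by 0.98 (SE 0.09, edgeR adjusted p = 2.14e-05). The 5 satellite glia markers summed to 4095 to 4455 CPM in CCI KO, 4719 to 5044 CPM in CCI WT, 3278 to 4043 CPM in sham KO and 4159 to 4557 CPM in sham WT libraries. The 8 neuron markers summed to 10475 to 11575 CPM in CCI KO, 9698 to 10382 CPM in CCI WT, 9944 to 10472 CPM in sham KO and 8297 to 11232 CPM in sham WT libraries, so the defining markers of the labelled tissue were present. In CCI WT over sham WT libraries Tubb3, Cdh19 and Fabp7 rose by 0.36, 0.56 and 0.55, and Scn9a fell by 0.27, while Apoe fell by 0.26 in sham KO over sham WT libraries. None of the markers of these 3 cell types was at 0 in a library. The part of glial content in the values of Nr4a1, Egr3 and Dusp1 was not tested.

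Marker sums of the remaining cell types overlapped between genotypes in at least 1 treatment. Endothelial and pericyte markers summed to 148 to 202 CPM in CCI KO, 198 to 212 CPM in CCI WT, 154 to 183 CPM in sham KO and 156 to 264 CPM in sham WT libraries. Macrophage markers, of which Cx3cr1 and Csf1r rose in WT libraries after injury, summed to 82.8 to 106 CPM in CCI KO, 63.3 to 129 CPM in CCI WT, 53.9 to 78.8 CPM in sham KO and 42.4 to 81.7 CPM in sham WT libraries. Fibroblast markers summed to 777 to 864 CPM in CCI KO and 969 to 1866 CPM in CCI WT libraries, and to 634 to 1130 CPM in sham KO and 745 to 1314 CPM in sham WT libraries. Skeletal muscle markers reached 842 CPM in a sham KO library and 129 to 230 CPM in the CCI KO libraries, against at most 87.1 CPM in CCI WT and 168 CPM in sham WT libraries, and red blood cell markers reached 1752 CPM in a sham KO library. Tnnt3 and Hbb-bs were at 0 in at least 1 library. Cldn5 rose by 0.81 in CCI WT over sham WT libraries, and Col1a2 fell by 1.08 in the mean genotype effect. Of the 16 clock genes, 1 rose (Bmal1) and 6 fell (among them Dbp, Ciart and Nr1d1) in CCI WT over sham WT libraries, and 2 (Ciart and Dbp) were higher in CCI KO than in CCI WT libraries. Among all tested genes, edgeR called 3.06% for WT injury and 0.684% for CCI genotype, in either direction. Of the 14 axon injury genes, 13 rose in CCI WT over sham WT libraries, among them Npy by 8.72, Tubb6 by 2.55, Stmn4 by 1.90 and Smad1 by 0.42 on the log2 scale. For CCI KO over sham KO libraries edgeR called 0 of them (6 at an unadjusted p under 0.05, 2 by DESeq2 and 0 by limma-voom), where 0.0709% of all tested genes rose. In sham KO over sham WT libraries edgeR called 1 higher, with 9 at an unadjusted p under 0.05, 5 by DESeq2 and 0 by limma-voom. The share of all tested genes higher there is not given. The gene called was Sprr1a, a small proline-rich protein of regenerating axons, at 6.83 ± 1.31 on the log2 scale (SE, edgeR adjusted p = 0.0262). Sprr1a had 96.5, 45.4, 0.838 and 1.51 CPM in sham KO libraries 1 to 4, against 0.0183 to 0.538 CPM in sham WT libraries, so libraries 1 and 2 were far above the other sham KO libraries. The part of these clock and injury genes in the values of the immediate early genes was not tested.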

How the data were processed

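Per the labels' protocols, RNA came from a PicoPure kit and its cDNA from the SMART-Seq v4 Ultra Low Input chemistry, in which strand is not marked. Per the submitters' processing notes, bcl2fastq 2.20.0.422, STAR 2.7.11a and GRCm39 were used. The deposited values are raw counts per Ensembl gene. For the counter, its strand setting and the annotation release: not given in the sources used here. All 5 closing lines of each table, such as reads outside genes (4.04 to 4.55%) and ambiguous reads (7.63 to 8.17%), stayed out of totals and tests. GENCODE M39 matched 78168 of 78298 identifiers.

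Of 46200 genes with a count, 23972 passed edgeR's filterByExpr (minimum count 10, minimum total 15), including all 10 members. TMM scaling factors were 0.983 to 1.03. The main test was edgeR's quasi-likelihood F test with 1 mean per group (17 libraries, 13 residual degrees of freedom, robust dispersions) and Benjamini-Hochberg adjustment over all tested genes. log2 CPM had a prior count of 2. Correlations took deviations from group means with 100000 permutations within groups. Likeness covered protein-coding genes with a mean of at least 1 CPM. By rule the text names all 10 members, the called genes of each list (the 4 of smallest p where more passed), for the other immediate early genes also up to 4 of smallest p where none passed, the 10 genes most like the members, Kcnk1, Atf3 and Sprr1a. Genes, lists and members were chosen with earlier results of these data known. A few listed genes are not reported here and were left out of their lists' counts and sums.

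Alternatives were DESeq2 size factors, a filter of 1 CPM in 5 libraries, no filter on low counts, DESeq2's test, limma-voom with sample weights, only the groups compared, a replicate block, omission of sham KO libraries 1 and 2 together, and omission of each library. The fit was tested on simulated data. Software was R 4.3.3, edgeR 4.0.16, limma 3.58.1, DESeq2 1.42.0, Python 3.11.15, NumPy 2.4.6, SciPy 1.17.1 and Matplotlib 3.10.9. Depth was 52.5 to 73.6 M gene counts per library.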

Additional observations from a re-analysis of the deposited data

Results flagged for a closer look

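Egr3 in CCI WT library 2, at 2.62 CPM, lay far below the other CCI WT libraries, which held 4.91 to 5.45 CPM. Without it, the log2 fold change of CCI WT over sham WT libraries passed the edgeR test (0.88, adjusted p = 0.0244). Arc in sham WT library 2, at 11.7 CPM, lay far above the other sham WT libraries, which held 3.11 to 5.30 CPM. These were the 2 flags among 30 groups of 4 or 5 libraries checked, where chance flags about 1 in 20.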

How the results depend on the processing

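Of 1709 alternative values of the members over 25 settings, 0 reversed a called direction, 46 lost the threshold, 15 passed it newly and 131 differed in sign with neither past it. The cause of the changes was not tested. For the 10 members, the WT injury count of 0 became 1 with no filter, 2 with DESeq2 and 0 to 2 with 1 library left out (2 without CCI WT library 2, 1 without sham WT library 3). The KO injury count of 1 became 0 with DESeq2 size factors, limma-voom or without sham KO libraries 1 and 2, and was 0 to 1 with 1 library left out. The sham genotype count of 1 became 0 with size factors, limma-voom, the 2 groups alone or without those 2 libraries, and was 0 to 1 with 1 library left out. The CCI genotype count of 0 became 1 with no filter. The mean genotype count of 2 became 1 with limma-voom and was 1 to 2 with 1 library left out.

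For the other immediate early genes, the WT injury count of 10 became 16 with no filter, 17 with the 2 groups alone and 16 without sham KO libraries 1 and 2. The KO injury count of 0 became 2 with no filter, 2 with DESeq2 and 3 without those libraries. The sham genotype count of 1 became 6 with no filter, 9 with DESeq2, 4 with limma-voom, 0 with the 2 groups alone, 0 without those libraries and 0 to 8 with 1 library left out. The CCI genotype count of 0 became 1 with no filter, DESeq2, limma-voom or the 2 groups alone, and was 0 to 1 with 1 library left out. The interaction count of 0 became 3 with no filter. The mean genotype count of 1 became 2 with no filter, 3 with DESeq2, 2 with limma-voom, 0 without those libraries and 0 to 4 with 1 library left out.

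The replicate numbers are shared across groups, and no label says whether a number marks a shared animal or day. Correlations of deviations ran from -0.013 to 0.118 over 22 pairs with the same number (1 over 0.1). Over 85 other pairs they ran from -0.167 to 0.114. Every pair numbered 3 was positive, from 0.034 to 0.118, while pairs numbered 1, 2 and 4 gave both signs. Whether the numbers pair the libraries was not tested. With the number as a replicate block, the members called became 1 for WT injury (Nr4a1), 0 for genotype in sham libraries and 1 for the mean genotype effect (Egr3 was lost, at -0.65 with edgeR adjusted p = 0.110), and the other immediate early genes called became 0 for genotype in sham libraries and 0 for the mean genotype effect.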
